A study of Mus musculus with 15 samples.

Results

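The mitochondrial ribosomal proteins are encoded in the nucleus, made in the cytosol and imported into mitochondria, and their genes were followed here across all 5 groups of a hypoxia and Hif1a knockdown experiment in mouse melanocytes. Members were the genes whose symbol is Mrpl or Mrps followed by a digit, on array probe sets annotated to exactly 1 symbol. Where a member had more than 1 such probe set, as 9 did, it is represented by the one whose mean over all 15 arrays was highest. This gave 71 of the 22180 genes tested, 43 named for the large subunit (Mrpl) and 28 for the small subunit (Mrps). RefSeq lists 78 protein-coding genes with such a symbol, and the other 7 (Mrpl30, Mrpl33, Mrpl41, Mrpl43, Mrpl44, Mrpl53 and Mrps6) lay on probe sets shared with another gene and were not used here.

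RNA came from melan-Ink4a-Arf-1 (melan-a), an immortalized melanocyte line of Cdkn2a tm1RDp/tm1RDp mice, so every group lacks this tumour suppressor locus and the results describe 1 cell line. All cells grew at 37 °C in RPMI medium with 10% serum, 200 nM of the phorbol ester 12-O-tetradecanoylphorbol 13-acetate and 200 pM cholera toxin. The normoxia group was kept at about 21% oxygen with 10% CO2. The hypoxia control, the negative control, Si1 and Si6 spent 24 h at 1% oxygen, 5% CO2 and 94% nitrogen, so oxygen and CO2 differed together and cannot be told apart. Si1 and Si6 are siRNAs against Hif1a, the subunit through which oxygen controls the hypoxia-inducible factor, transfected 24 h before hypoxia. What the hypoxia control and the negative control received besides hypoxia is not stated in the labels. Each group had 3 arrays, lettered a to c, which the series describes as biological triplicates, and p-values measure the spread between these cultures.

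The mitochondrial ribosome translates the few messenger RNAs of the mitochondrial genome, all of which encode subunits of the respiratory chain and ATP synthase. It has a small subunit that reads the message and a large subunit that joins amino acids, and many of its proteins have no counterpart in bacterial or cytosolic ribosomes. Its protein genes need to be expressed together with ribosomal RNA made inside the organelle, and transcription factors of the NRF1, ETS (GABPA) and YY1 families are known to act on many nuclear genes for mitochondrial proteins.

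Promoter sequences are shown for 6 members that the results turn on, because the members moved largely together. The RefSeq table of GRCm38.p6 held promoter windows of 300 bases (250 before and 50 after a transcription start) for 62 of the 71 members, 68 windows in all, since 3 members had more than 1. The following runs are the 250 bases before the start, 5′ to 3′ on the gene's own strand, with capitals marking matches to any of 6 motifs searched on both strands. Names beside a run cover these 250 bases alone, whereas the counts that follow use the whole window, in which Mrpl42 and Mrpl35 also hold the YY1 letters and Mrps18b the ETS letters and another NRF1 match. Mrpl42 is shown as the member that rose most with each siRNA, Mrpl16 as the next largest rise with Si6, Mrps18b as the small subunit member that rose most, Mrpl3 as the member that differed most between the siRNAs, Mrpl35 as a member raised by both, and Mrpl24 as a member that fell.
Mrpl42, chr10:95501950-95502199, minus strand, with no match in the printed run: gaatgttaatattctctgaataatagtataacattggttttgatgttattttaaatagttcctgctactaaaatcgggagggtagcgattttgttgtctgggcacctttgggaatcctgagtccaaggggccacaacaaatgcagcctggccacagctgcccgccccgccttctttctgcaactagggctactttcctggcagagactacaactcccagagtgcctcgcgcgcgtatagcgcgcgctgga
Mrpl16, chr19:11770165-11770414, plus strand, with no match in the printed run or the whole window: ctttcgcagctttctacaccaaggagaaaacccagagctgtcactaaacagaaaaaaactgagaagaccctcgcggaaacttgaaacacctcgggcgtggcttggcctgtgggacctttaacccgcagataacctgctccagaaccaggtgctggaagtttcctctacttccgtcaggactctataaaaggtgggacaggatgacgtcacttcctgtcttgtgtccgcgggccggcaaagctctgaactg
Mrps18b, chr17:35916441-35916690, minus strand, with the NRF1 letters: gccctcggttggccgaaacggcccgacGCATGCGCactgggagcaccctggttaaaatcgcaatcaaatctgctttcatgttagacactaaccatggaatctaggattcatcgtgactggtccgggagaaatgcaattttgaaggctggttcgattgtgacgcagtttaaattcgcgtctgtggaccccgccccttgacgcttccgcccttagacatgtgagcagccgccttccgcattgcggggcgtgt
Mrpl3, chr9:105053018-105053267, plus strand, with the ETS letters: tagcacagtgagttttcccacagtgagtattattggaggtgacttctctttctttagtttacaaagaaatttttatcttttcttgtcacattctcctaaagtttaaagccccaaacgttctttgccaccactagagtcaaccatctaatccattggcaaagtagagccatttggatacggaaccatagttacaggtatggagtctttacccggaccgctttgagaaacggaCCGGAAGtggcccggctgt
Mrpl35, chr6:71823785-71824034, minus strand, with the HIF letters: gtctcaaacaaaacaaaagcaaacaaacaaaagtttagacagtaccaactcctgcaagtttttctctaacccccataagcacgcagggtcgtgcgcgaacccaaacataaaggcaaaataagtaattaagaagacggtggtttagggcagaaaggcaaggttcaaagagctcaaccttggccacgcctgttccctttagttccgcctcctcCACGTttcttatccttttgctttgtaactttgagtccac
Mrpl24, chr3:87919294-87919543, plus strand, with no match in the printed run or the whole window: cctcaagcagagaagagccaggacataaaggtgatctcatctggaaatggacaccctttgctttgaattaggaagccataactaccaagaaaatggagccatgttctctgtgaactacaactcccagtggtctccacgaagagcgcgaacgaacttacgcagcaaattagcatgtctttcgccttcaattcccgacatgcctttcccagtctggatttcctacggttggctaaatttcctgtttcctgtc

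Motif letters for ETS, YY1 and NRF1 were more frequent in member windows than in the windows of all genes tested. The ETS letters CCGGAAG occurred in 23 of 68 member windows (33.8%), against 11.4% of 20611 windows of genes tested and 8.86% of all 32851 windows. The YY1 letters AAGATGGC occurred in 12 member windows (17.6%), against 3.11% of windows of genes tested and 2.75% of all windows. The NRF1 letters GCATGCGC occurred in 7 (10.3%), against 3.63% and 2.71%. The HIF letters ACGTG stood in 18 member windows (26.5%), against 21.4% of windows of genes tested and 19.6% of all windows. The E-box CACGTG, bound by MYC and related factors, always contains the HIF letters and stood in 7 (10.3%), against 8.07% and 7.15%. The ATF4 letters TGATGNAA stood in 0 member windows, against 3.39% and 3.97%. These are letter matches in fixed windows, given as a description with no test. By subunit, the ETS letters stood in 12 of 42 Mrpl windows and 11 of 26 Mrps windows. The HIF letters stood in 15 Mrpl windows (35.7%) and 3 Mrps windows (11.5%), above and below the share of genes tested (21.4%). The YY1 letters stood in 6 Mrpl and 6 Mrps windows. The NRF1 letters stood in 6 Mrpl windows (14.3%) and 1 Mrps window (3.85%), so their share in Mrps windows was near that of genes tested (3.63%).

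Array quality and labels were checked over all genes. Array medians lay between 6.52 and 6.61 on the log2 scale, arrays of the same group correlated at 0.9931 to 0.9957, and arrays of different groups at 0.9782 to 0.9931. Hif1a was 25.3% of the negative control's level with Si1 (log2 fold change -1.98 ± 0.06, SE) and 30.7% with Si6 (-1.70 ± 0.06). Group means of the 12 melanocyte markers ran from 7.08 (Ednrb with Si1) to 13.3 (Dct in normoxia). Those of Mitf, Sox10 and Tyr ran from 9.38 (Tyr with Si1) to 11.5 (Mitf in normoxia). Of 7 immune cell markers, the pan-leukocyte marker Ptprc read 4.45 with Si1 and 4.49 with Si6, while Cd68, a macrophage marker, read 8.32 in the negative control, 9.65 with Si1 and 8.51 with Si6.

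Across the 5 groups, most mitochondrial ribosomal protein genes were at their highest in the hypoxic cells with Hif1a knocked down. The highest of the 5 group means was that of Si1 for 30 of 43 Mrpl and 20 of 28 Mrps genes, and that of Si6 for 9 Mrpl and 3 Mrps genes. As a deviation from each gene's own mean over 15 arrays, the median Mrpl gene stood at -0.13, -0.09 and -0.08 (log2) on the normoxia arrays, -0.15, -0.14 and -0.17 in the hypoxia control and -0.13, -0.13 and -0.18 in the negative control. It stood at 0.22, 0.24 and 0.33 with Si1 and at 0.11, 0.17 and 0.16 with Si6. The median Mrps gene ran alongside, at -0.08, -0.03 and -0.03 in normoxia, -0.15, -0.12 and -0.15 in the hypoxia control, -0.14, -0.10 and -0.17 in the negative control, 0.18, 0.21 and 0.30 with Si1 and 0.06, 0.12 and 0.07 with Si6. All 6 siRNA arrays therefore lay above all 9 others for both subunits, and Si1 above Si6. The median of all genes on the same scale stayed within 0.02 of 0 on every array.

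**Figure D1:**
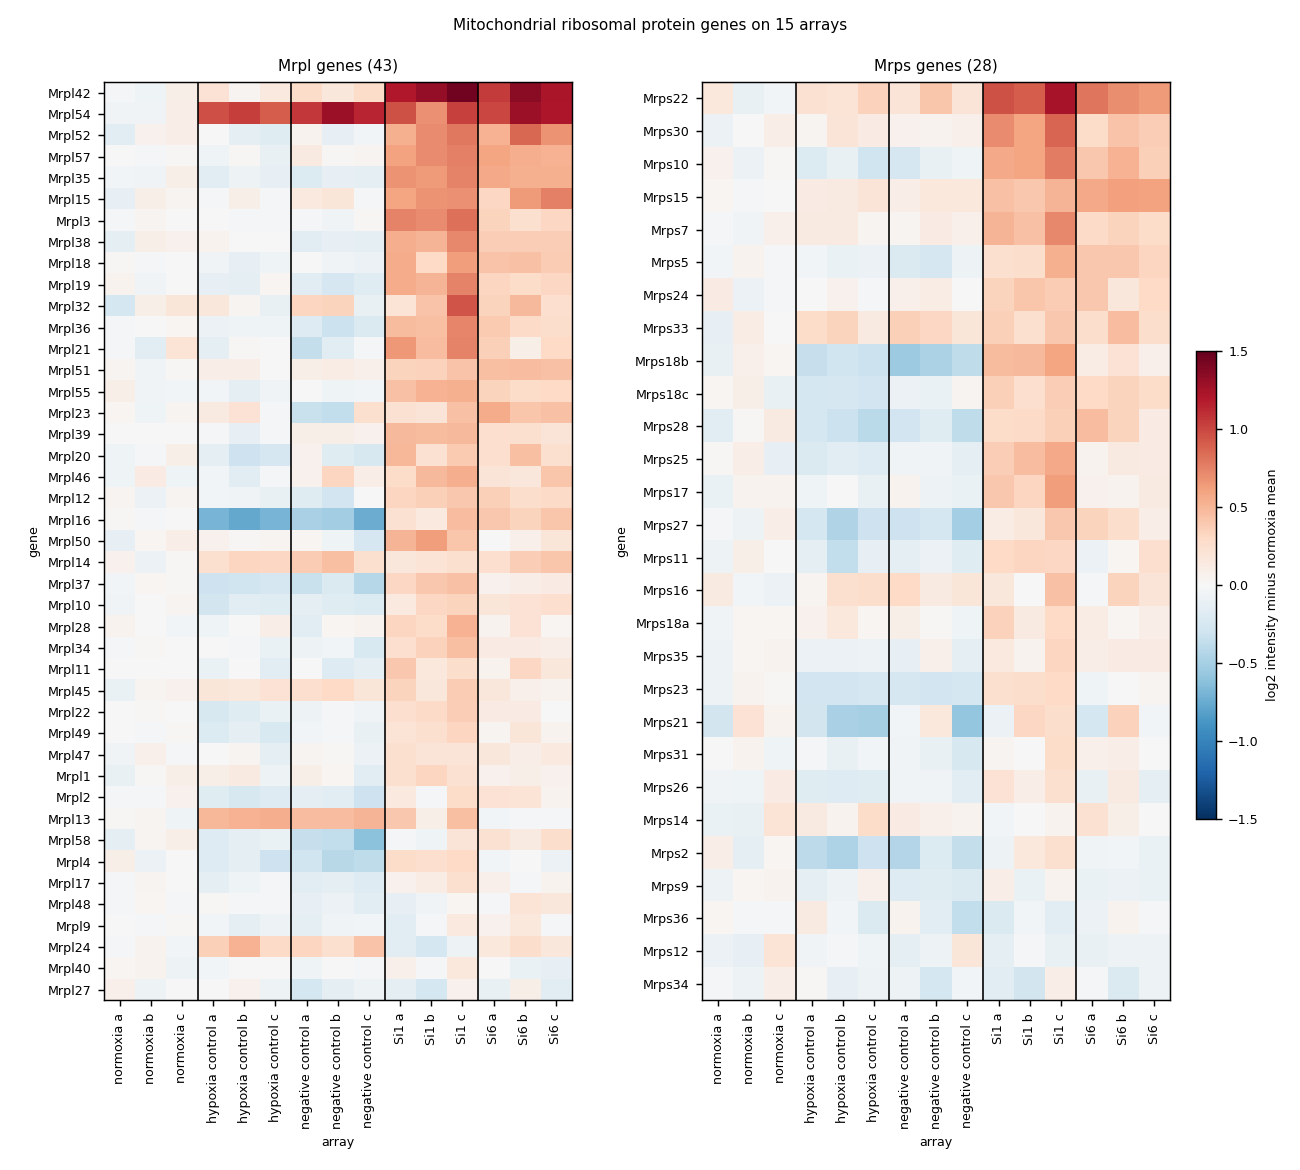
Log2 intensity of each Mrpl (43) and Mrps (28) gene on each of the 15 arrays, minus that gene's normoxia mean, with genes in rows ordered by their mean over the siRNA arrays and arrays in columns by group. The Si1 and Si6 columns are mostly above normoxia, and the hypoxia control and negative control columns are close to normoxia or slightly below.

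The first comparison asked what low oxygen did to these genes without a knockdown. Changes were mixed and small: 13 members fell and 6 rose in the hypoxia control against normoxia, and 52 passed in neither direction. Among all 22180 genes, 11.2% fell and 9.87% rose. The median log2 fold change over members was -0.06, against 0.00 over all genes. Of the Mrpl genes 6 fell and 4 rose, and of the Mrps genes 7 fell and 2 rose. Calls here and below rest on limma with Benjamini-Hochberg adjustment over all genes at 0.05, and each ± on a fold change is its standard error. The number of falls depended on single arrays: 7 members fell without normoxia array c.

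Mrpl16, whose bacterial homologue lies near the catalytic centre of the large subunit, fell most. Its log2 intensities were 8.70, 8.67 and 8.69 in normoxia, 7.99, 7.93 and 8.00 in the hypoxia control, 8.20, 8.17 and 7.95 in the negative control, 8.92, 8.84 and 9.15 with Si1, and 9.09, 9.02 and 9.11 with Si6. The normoxia arrays lay above both hypoxic controls without overlap and below every siRNA array. The fall in hypoxia was -0.72 ± 0.08 (adjusted p = 6.1e-06), to 0.608 of the normoxia level.

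Small subunit genes made up the next largest falls. Mrps2 read 8.75, 8.51 and 8.68 in normoxia and 8.26, 8.18 and 8.34 in the hypoxia control (-0.39 ± 0.09, adjusted p = 0.0038). Mrps18b read 9.46, 9.65 and 9.60 against 9.23, 9.28 and 9.25 (-0.32 ± 0.06, adjusted p = 0.0016). The 2 groups did not overlap for either gene. Mrps27, an RNA-binding protein that occurs in mitochondrial ribosomes only, read 7.63, 7.58 and 7.74 against 7.38, 7.20 and 7.33 (-0.34 ± 0.09, adjusted p = 0.011). That call was lost without hypoxia control array b (adjusted p = 0.060) or normoxia array c (0.054). Mrps28 read 6.94, 7.11 and 7.23 against 6.82, 6.76 and 6.68 (-0.33 ± 0.09, adjusted p = 0.012), and its call was lost without hypoxia control array c (0.054) or normoxia array c (0.065). The other members that fell were Mrpl37 (-0.29), Mrps23 (-0.28), Mrps18c (-0.27), Mrpl4 (-0.21), Mrpl10 (-0.21), Mrps25 (-0.19), Mrpl49 (-0.19) and Mrpl22 (-0.17). Mrpl10 lost its call without hypoxia control array a (0.079) or normoxia array c (0.062), and with the mean of its probe sets its difference was -0.08 (adjusted p = 0.27). Mrpl22 lost its call without any 1 of hypoxia control arrays a (0.17) and b (0.10) and normoxia arrays a (0.07), b (0.11) and c (0.081), and also with another quantile normalization (0.0501), median centring (0.090), trend and robust eBayes (0.097), a fit to the compared groups alone (0.075) and a fit with the array letter as a replicate block (0.058).

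The 6 members that rose in hypoxia included the member with the largest hypoxia change in either direction. Mrpl54, a large subunit protein of mitochondrial ribosomes, read 8.18, 8.18 and 8.33 in normoxia, 9.20, 9.27 and 9.14 in the hypoxia control, 9.30, 9.52 and 9.37 in the negative control, 9.19, 8.92 and 9.26 with Si1, and 9.24, 9.52 and 9.45 with Si6. All 12 hypoxic arrays lay above the 3 normoxic ones. It rose by 0.97 ± 0.09 (adjusted p = 1.9e-06), a 1.96-fold change. Mrpl13, which has homologues in all ribosomes, read 8.99, 9.01 and 8.90 in normoxia, 9.47, 9.48 and 9.51 in the hypoxia control and 9.43, 9.43 and 9.47 in the negative control. It then read 9.37, 9.05 and 9.41 with Si1 and 8.93, 8.93 and 8.95 with Si6. The 2 control groups at low oxygen stood above normoxia, whereas Si6 overlapped normoxia and Si1 lay between. Its rise in hypoxia was 0.52 ± 0.07 (adjusted p = 9.4e-05).

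Mrpl24, another large subunit protein with bacterial homologues, read 9.47, 9.55 and 9.46 in normoxia, 9.86, 10.01 and 9.79 in the hypoxia control, 9.82, 9.73 and 9.93 in the negative control, 9.32, 9.24 and 9.41 with Si1, and 9.66, 9.76 and 9.67 with Si6. Its hypoxia rise was 0.39 ± 0.07 (adjusted p = 0.00073), and the Si1 arrays lay below all others. Mrpl14, which binds the assembly factor Malsu1, read 7.06, 6.90 and 7.01 in normoxia and 7.24, 7.31 and 7.31 in the hypoxia control (0.29 ± 0.06, adjusted p = 0.0039). It stayed between 7.16 and 7.45 on the 9 arrays of the other hypoxic groups, so no hypoxic array reached down to normoxia. Mrps33 read 8.12, 8.35 and 8.24 against 8.51, 8.57 and 8.36 (0.25 ± 0.08, adjusted p = 0.042). Mrps15 read 9.71, 9.66 and 9.69 against 9.81, 9.82 and 9.88 (0.15 ± 0.05, adjusted p = 0.035). The last 2 calls were weak: Mrps33 lost its call without hypoxia control arrays a (0.12) or b (0.17) or normoxia arrays a (0.16) or c (0.088), and Mrps15 without hypoxia control arrays a (0.059), b (0.071) or c (0.13) or normoxia arrays b (0.12) or c (0.073). Both calls were also lost after median centring (0.057 for Mrps33 and 0.061 for Mrps15) and with the compared groups alone (0.070 and 0.081).

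**Figure D2:**
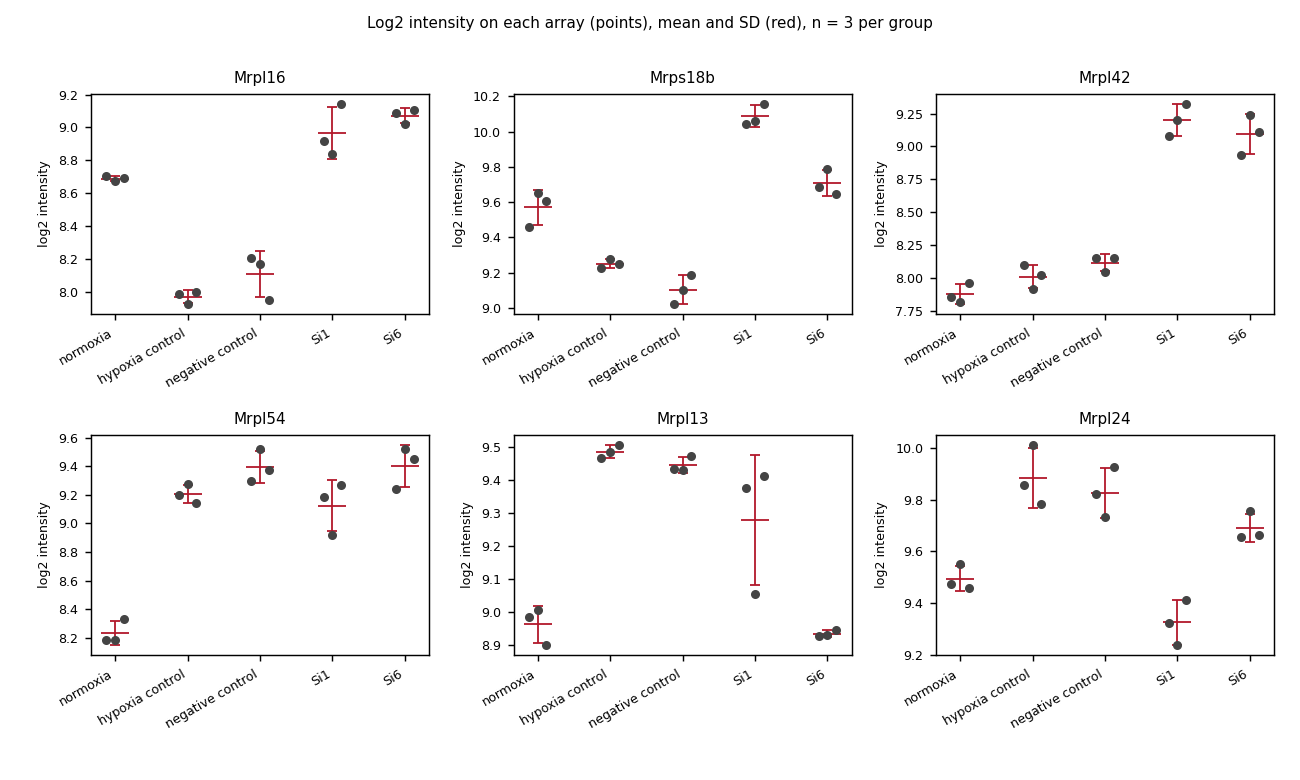
Log2 intensity of selected members on each array (points), with the group mean and SD in red (n = 3 per group), groups on the x axis. Mrpl16 falls in both hypoxic controls and lies above normoxia with both siRNAs, whereas Mrpl54 is high on all 12 hypoxic arrays.

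The negative control and the hypoxia control were both at low oxygen, and the members differed little between them. Mrps18c and Mrpl39 were higher in the negative control and Mrpl58 was lower, 2 rises and 1 fall among 71, where 7.80% of all genes rose and 7.51% fell. The median member difference was 0.00. Mrps18c read 6.86, 6.87 and 6.83 in the hypoxia control and 7.03, 7.03 and 7.16 in the negative control (0.22 ± 0.06, adjusted p = 0.022). Mrpl39 read 9.57, 9.49 and 9.57 against 9.69, 9.69 and 9.67 (0.14 ± 0.04, adjusted p = 0.041). Mrpl58, a peptidyl-tRNA hydrolase built into the large subunit that frees stalled ribosomes, read 8.41, 8.47 and 8.49 against 8.25, 8.23 and 7.98 (-0.30 ± 0.08, adjusted p = 0.023). The groups did not overlap for these 3 genes, but each call was lost when single arrays were left out. Mrpl58 lost it without negative control array c (0.11) or hypoxia control arrays b (0.068) or c (0.081), Mrps18c without negative control array c (0.097) or hypoxia control arrays a (0.057), b (0.052) or c (0.079), and Mrpl39 without any 1 of the 6 arrays (0.063 to 0.18). Mrpl39 also lost it with another quantile normalization (0.052), median centring (0.11), the compared groups alone (0.12) and the replicate block (0.069), and Mrps18c with the mean of its probe sets (0.99).

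Against the negative control, the siRNAs moved most members upwards. With Si1, 54 of 71 members rose and 2 fell, where 20.2% of all genes rose and 14.8% fell. With Si6, 42 rose and 1 fell, where 17.0% of all genes rose and 11.9% fell. The median member changed by 0.40 with Si1 and 0.23 with Si6, and the median of all genes by -0.01 in both. Of 43 Mrpl genes, 33 rose with Si1 (median 0.44) and 28 with Si6 (median 0.31). Of 28 Mrps genes, 21 rose with Si1 (median 0.35) and 14 with Si6 (median 0.20). The changes were small in size: 1 member passed a 2-fold rise with Si1 and 0 with Si6, and the middle range of member changes (25th to 75th percentile) was 0.24 to 0.59 with Si1 and 0.12 to 0.46 with Si6. Both comparisons use the same 3 negative control arrays. Without negative control array c, 34 members rose with Si6.

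**Figure D3:**
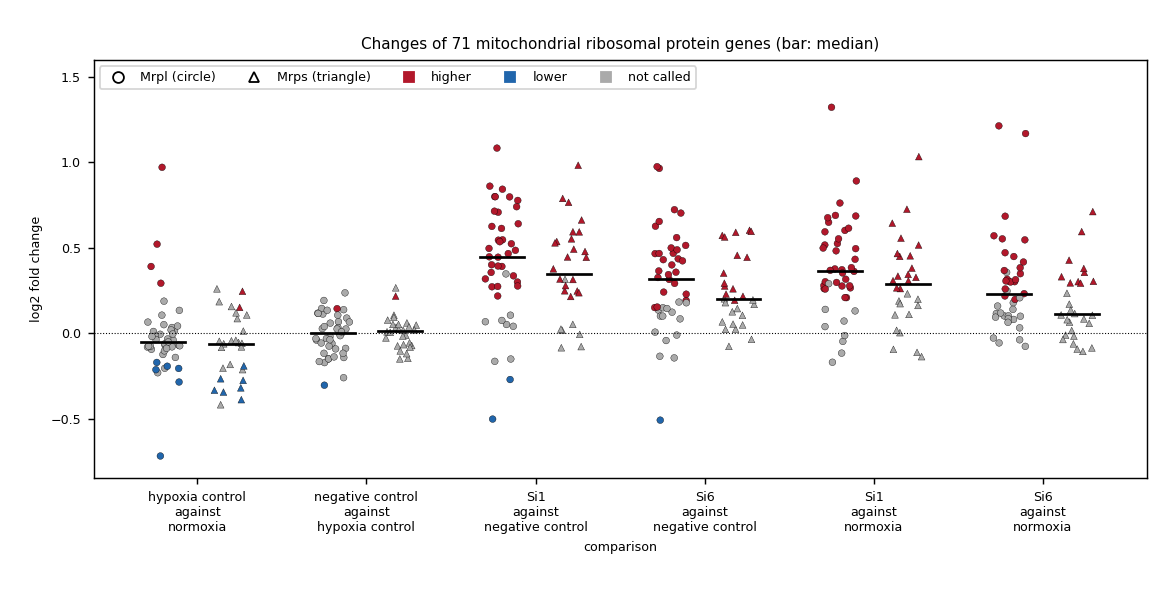
Log2 fold change of each of the 71 members (circles Mrpl, triangles Mrps, coloured by call, bar at the median) in each comparison on the x axis. The members lie on both sides of 0 in hypoxia and mostly above 0 with Si1 and Si6.

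Mrpl42, a large subunit protein, rose most with both siRNAs. It read 7.86, 7.82 and 7.96 in normoxia, 8.10, 7.92 and 8.02 in the hypoxia control, 8.16, 8.05 and 8.16 in the negative control, 9.08, 9.20 and 9.32 with Si1, and 8.93, 9.24 and 9.11 with Si6. The 6 siRNA arrays stood apart from the 9 others by more than the spread of any group. The rise was 1.08 ± 0.08 with Si1 (adjusted p = 4.1e-08), a 2.12-fold change, and 0.97 ± 0.08 with Si6 (adjusted p = 2.7e-07). Mrpl16, which had fallen in hypoxia, rose by 0.86 ± 0.08 with Si1 (adjusted p = 2.8e-07) and 0.96 ± 0.08 with Si6 (adjusted p = 1.7e-07). The whole promoter window of Mrpl16 holds none of the 6 motifs searched, and that of Mrpl42 holds the YY1 letters outside the printed run.

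Mrps18b rose most among the small subunit genes. It read 9.03, 9.10 and 9.19 in the negative control, 10.05, 10.06 and 10.16 with Si1, and 9.68, 9.79 and 9.65 with Si6. The 3 groups did not overlap, with Si6 between the others. The rises were 0.98 ± 0.06 with Si1 (adjusted p = 7.8e-09) and 0.60 ± 0.06 with Si6 (adjusted p = 2.8e-06). Its second probe set rose too, by 1.27 ± 0.07 and 0.92 ± 0.07. Mrpl35 read 8.78, 8.87 and 8.84 in the negative control, 9.66, 9.63 and 9.73 with Si1 and 9.55, 9.52 and 9.52 with Si6 (0.84 ± 0.05 and 0.70 ± 0.05). Mrpl19, like Mrpl35 a protein shared with bacterial large subunits, read 8.59, 8.50 and 8.56, then 9.30, 9.26 and 9.49, then 9.07, 9.02 and 9.06 in the same order (0.80 ± 0.07 and 0.50 ± 0.07). In both genes every siRNA array lay above every array of the 3 other groups.

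Mrpl52 read 9.19, 9.01 and 9.09 in the negative control, 9.66, 9.84 and 9.93 with Si1 and 9.66, 9.99 and 9.81 with Si6, and its rises were alike, 0.71 ± 0.09 and 0.72 ± 0.09. Mrpl58, the hydrolase, read 8.58, 8.53 and 8.80 with Si1 and 8.83, 8.73 and 8.86 with Si6, and rose by 0.48 ± 0.08 and 0.65 ± 0.08 from a negative control that was itself below the hypoxia control. Set against the hypoxia control instead, its Si1 rise did not pass (adjusted p = 0.12). Mrpl12, which also binds the mitochondrial RNA polymerase, rose by 0.52 ± 0.07 and 0.47 ± 0.07, and Mrps27 by 0.59 ± 0.09 and 0.60 ± 0.09. Mrps22, a small subunit protein named here after its values were seen, read 6.88, 7.11 and 6.88 in the negative control, 7.64, 7.60 and 7.92 with Si1 and 7.49, 7.38 and 7.33 with Si6 (0.77 ± 0.09 and 0.44 ± 0.09). For these genes the siRNA arrays lay above the negative control arrays without overlap. Mrps2 rose by 0.45 ± 0.09 with Si1 and 0.28 ± 0.09 with Si6, and the Si6 call (adjusted p = 0.024) was lost without negative control arrays a (0.11) or c (0.068) or Si6 arrays a (0.059) or b (0.073), or with another quantile normalization (0.063). Mrpl39 rose by 0.40 ± 0.04 and 0.15 ± 0.04, and its Si6 call (adjusted p = 0.018) was lost without negative control array c (0.053) or Si6 arrays a (0.061) or b (0.062), with another quantile normalization (0.074) and with the compared groups alone (0.071).

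The 3 falls with an siRNA were all in large subunit genes that had risen in hypoxia. Of all genes that rose in hypoxia, 48.0% fell with Si1 and 48.9% with Si6. Mrpl24 fell with Si1 by 0.50 on the log2 scale (-0.50 ± 0.07, adjusted p = 2.8e-05), and its difference with Si6 was -0.14 ± 0.07 (adjusted p = 0.18). Mrpl13 fell with Si6 (-0.51 ± 0.07, adjusted p = 6.7e-05), to 0.703 of the negative control, and its difference with Si1 was -0.16 ± 0.07 (adjusted p = 0.11). Without Si1 array c the Mrpl13 difference passed with Si1 as well (adjusted p = 0.031), as it did with another quantile normalization (0.048), without the lowest 50% of genes (0.049) and with the hypoxia control as reference (0.040). Mrpl54 fell with Si1 (-0.27 ± 0.09, adjusted p = 0.033), and its difference with Si6 was 0.01 ± 0.09. The Mrpl54 call was lost without negative control arrays b (0.14) or c (0.059) or Si1 array b (0.17), after median centring (0.087), with the compared groups alone (0.065), and with the hypoxia control as reference (0.56).

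Si1 and Si6 were also compared directly, with no negative control array involved. Members were higher with Si1 for 27 genes and lower for 3, where 14.5% of all genes were higher and 13.4% lower. The median member difference was 0.11. Without Si1 array c, 16 members were higher with Si1 and 5 lower. Without Si1 array b, or without Si6 array b or c, 1 was lower. Of the Mrpl genes 16 were higher and 2 lower, and of the Mrps genes 11 were higher and 1 lower. Hif1a itself was lower with Si1 than with Si6 (-0.28 ± 0.06).

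Mrpl3, a large subunit protein with homologues in all ribosomes, differed most. It read 9.10, 9.16 and 9.13 in normoxia, 9.12, 9.11 and 9.10 in the hypoxia control, 9.11, 9.08 and 9.15 in the negative control, 9.87, 9.84 and 9.96 with Si1, and 9.46, 9.37 and 9.44 with Si6. Normoxia, the hypoxia control and the negative control overlapped, Si6 lay above them and Si1 above Si6. The difference between the siRNAs was 0.46 ± 0.05 (adjusted p = 2.8e-06), and the rises against the negative control were 0.78 ± 0.05 and 0.31 ± 0.05. Mrpl50 read 10.08, 10.20 and 9.98 with Si1 and 9.56, 9.65 and 9.75 with Si6 (0.43 ± 0.08, adjusted p = 0.0007). With Si6 it overlapped the negative control, which read 9.60, 9.50 and 9.32. Mrps30, named for the small subunit but now placed in the large one, read 8.40, 8.27 and 8.56 against 7.96, 8.11 and 8.05 (0.37 ± 0.07, adjusted p = 0.0011). Mrps18b was higher by 0.38 ± 0.06 (adjusted p = 0.00024). Mrpl21 read 7.13, 6.95 and 7.23 against 6.85, 6.57 and 6.78 (0.37 ± 0.11, adjusted p = 0.019), a call lost without Si1 array a (0.059) or c (0.087) or Si6 array b (0.098).

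The members lower with Si1 than with Si6 were Mrpl24 (-0.37 ± 0.07, adjusted p = 0.00079), Mrpl54 (-0.28 ± 0.09, adjusted p = 0.036) and Mrps15 (-0.14 ± 0.05, adjusted p = 0.039). The Mrpl54 groups overlapped on single arrays, and its call was lost without Si1 array b (0.19) or Si6 array b (0.15) or c (0.11), or with the compared groups alone (0.093). Mrps15 read 10.13, 10.09 and 10.20 with Si1 and 10.25, 10.31 and 10.29 with Si6, both above the negative control (9.79, 9.85 and 9.84), and its call between the siRNAs was lost without Si1 array a (0.093) or b (0.14) or Si6 array a (0.051), b (0.12) or c (0.089), and also with another quantile normalization (0.051), median centring (0.078), the compared groups alone (0.13) and the replicate block (0.051). Mrpl13 was the reverse case, 0.34 ± 0.07 higher with Si1 (adjusted p = 0.0021).

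Set against normoxia, 50 members were higher with Si1 and 0 lower, where 21.7% of all genes were higher and 17.4% lower. With Si6, 32 members were higher and 0 lower, where 17.0% of all genes were higher and 13.1% lower. At an unadjusted p under 0.05 the counts of lower members were 1 with Si1 and 0 with Si6. In the negative control 9 members were higher and 15 lower than normoxia, where 14.6% of all genes were higher and 15.7% lower. Without normoxia array c, 9 were lower. All 3 comparisons share the normoxia arrays. The median member stood 0.32 above normoxia with Si1, 0.20 above with Si6 and at -0.08 in the negative control. Mrpl42 was 1.32 ± 0.08 above normoxia with Si1 and 1.21 ± 0.08 with Si6, and Mrps22 was 1.03 ± 0.09 and 0.71 ± 0.09 above. Mrpl16 was 0.28 ± 0.08 and 0.38 ± 0.08 above, a Si1 call that was lost without Si1 array c (adjusted p = 0.051). Mrps18b was 0.52 ± 0.06 above normoxia with Si1, and its Si6 difference of 0.14 ± 0.06 did not pass. That call turned on the probe set: its second one was 0.47 ± 0.07 above normoxia with Si6 (adjusted p = 5.7e-05), and the mean of both was 0.30 above (adjusted p = 0.00054).

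The hypoxia change and the siRNA changes come from comparisons with no array in common, although all 15 arrays were normalized together. All 13 members that fell in hypoxia rose with Si1, which is 24.1% of the 54 that rose with Si1, and 12 of the 13 (92.3%) rose with Si6, which is 28.6% of the 42. Of the 52 members with no hypoxia call, 40 (76.9%) rose with Si1 and 29 (55.8%) with Si6. Of all 2474 genes that fell in hypoxia, 54.9% rose with Si1 and 59.0% with Si6, against 15.7% and 12.1% of the 17516 with no hypoxia call. Whether the members differ from other genes in this was not tested. Of the 6 that rose in hypoxia, Mrpl24 and Mrpl54 fell with Si1, Mrpl13 fell with Si6, and Mrps15 rose with Si1 (0.31 ± 0.05) and with Si6 (0.46 ± 0.05). Mrpl14 and Mrps33 passed with neither siRNA. Across the 71 genes, the hypoxia change and the Si1 change had Pearson's r = -0.52 and Spearman's rho = -0.42, and the hypoxia change and the Si6 change had r = -0.48 and rho = -0.43. These describe genes measured on shared arrays, and genes are not independent replicates.

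**Figure D4:**
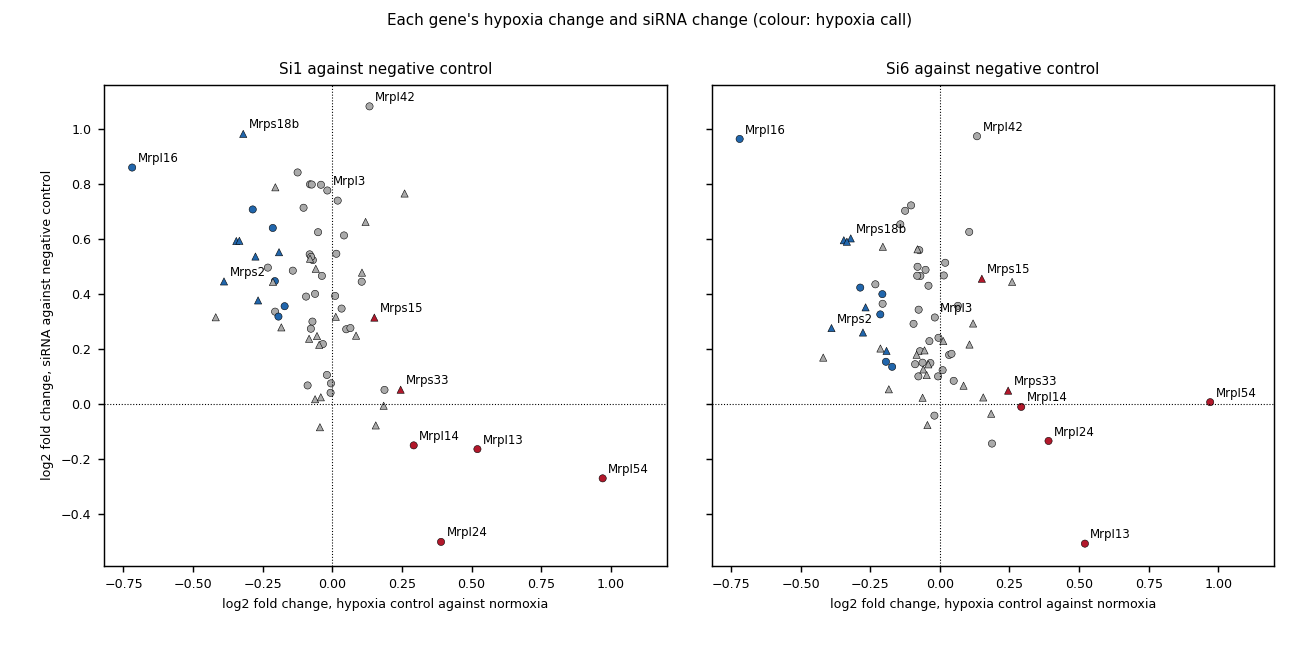
Each member's log2 fold change in hypoxia (x axis, hypoxia control against normoxia) and with Si1 or Si6 (y axis, against the negative control), coloured by its hypoxia call. Members that fell in hypoxia lie above 0 on the y axis, as do most members with no hypoxia call, and Mrpl54, Mrpl24 and Mrpl13 lie to the right and at or below 0 for at least 1 siRNA.

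The Mrps18 paralogues, 3 relatives of a single bacterial small subunit protein, did not behave alike. Mrps18b fell in hypoxia and rose with both siRNAs, as given above. Mrps18c read 7.15, 7.21 and 7.01 in normoxia, 6.86, 6.87 and 6.83 in the hypoxia control, 7.03, 7.03 and 7.16 in the negative control, 7.48, 7.38 and 7.49 with Si1, and 7.42, 7.45 and 7.40 with Si6. It fell in hypoxia by 0.27 on the log2 scale (-0.27 ± 0.06) and rose by 0.38 ± 0.06 and 0.35 ± 0.06 with the siRNAs. Mrps18a, now placed in the large subunit, read between 7.89 and 8.11 on the 9 arrays of normoxia, the hypoxia control and the negative control. It read 8.30, 8.09 and 8.25 with Si1, and 8.07, 7.98 and 8.05 with Si6. It rose with Si1 only weakly (0.25 ± 0.06, adjusted p = 0.0056), its Si6 difference was 0.07 ± 0.06 (adjusted p = 0.52), and the difference between the siRNAs of 0.18 ± 0.06 (adjusted p = 0.044) was lost without Si1 array a (0.18) or c (0.12) or Si6 array a (0.060), b (0.15) or c (0.078), and also after median centring (0.071), with the compared groups alone (0.099) and with the replicate block (0.062). The second, dimmer Mrps18c probe set read the other way in hypoxia (0.17 ± 0.08) and between the controls (-0.21 ± 0.08), and passed in neither, so these calls rest on 1 of 2 probe sets (adjusted p = 0.63 in hypoxia with the mean of both). Against the negative control this second probe set read 0.13 ± 0.08 with Si1 (adjusted p = 0.25) and 0.09 ± 0.08 with Si6 (adjusted p = 0.47), and passed with neither.

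For 5 further members the probe sets disagreed by more than 0.5 in a comparison in which the brighter one passed. Mrpl10 rose by 0.45 ± 0.06 with Si1 and 0.40 ± 0.06 with Si6 on the chosen probe set and read -0.06 ± 0.07 and -0.07 ± 0.07 on the other. Mrpl12 rose by 0.52 ± 0.07 and 0.47 ± 0.07 and read -0.04 ± 0.07 and -0.23 ± 0.07 on the other. That other Mrpl12 probe set passed as a fall with Si6, both against the negative control (adjusted p = 0.019) and against normoxia (-0.26 ± 0.07, adjusted p = 0.0069). Mrpl36 rose by 0.80 ± 0.07 and 0.56 ± 0.07 and read 0.04 ± 0.10 and -0.12 ± 0.10. Mrps5 rose by 0.53 ± 0.07 and 0.56 ± 0.07 and read -0.16 ± 0.10 and -0.19 ± 0.10. Mrps17 rose with Si1 by 0.49 ± 0.08 and read -0.02 ± 0.08. In each pair the chosen probe set was the brighter, with means over all arrays of 9.97 and 6.59 for Mrpl10, 7.40 and 6.54 for Mrpl12, 7.27 and 5.60 for Mrpl36, 8.27 and 6.43 for Mrps5, and 8.26 and 5.38 for Mrps17. With both probe sets averaged in place of the brighter one, the Si6 rise of Mrpl12 (adjusted p = 0.15) and both Mrps5 rises (0.052 and 0.055) no longer passed, nor did the Mrpl10 fall in hypoxia (-0.08, adjusted p = 0.27). Against normoxia, the rises of Mrpl10, Mrpl12 and Mrps5 with both siRNAs and of Mrpl36 with Si6, and the negative control falls of Mrpl10 and Mrpl36, were lost in the same way.

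Some members passed few tests or none. Mrpl9, Mrpl27, Mrpl32, Mrpl40, Mrps12, Mrps14, Mrps16, Mrps21, Mrps34 and Mrps36 passed in none of the 5 comparisons among hypoxia, the controls and the siRNAs. Of these, Mrpl32 was higher with Si1 than in normoxia (0.52 ± 0.17, adjusted p = 0.021). The second, dimmer probe set of Mrps16 rose with Si1 against the negative control (0.38 ± 0.14, adjusted p = 0.043) and stood above normoxia with Si1 (0.65 ± 0.14) and Si6 (0.60 ± 0.14), where the chosen one read -0.01 ± 0.11, 0.20 ± 0.11 and 0.17 ± 0.11. Mrps12, a protein of the decoding centre, read between 6.47 and 6.82 on all 15 arrays, and its differences were -0.09 ± 0.09 with Si1 and -0.08 ± 0.09 with Si6. Mrps21 was noisy, with 7.81, 8.01 and 7.26 in the negative control, and its Si1 difference of 0.32 ± 0.19 did not pass (adjusted p = 0.23). Mrps36, which is now known as a component of the oxoglutarate dehydrogenase complex, read between 5.87 and 6.38 and differed by 0.02 ± 0.10 with Si1 and 0.14 ± 0.10 with Si6. A p that misses the threshold does not show that these genes were unchanged. Mrpl34 and Mrps15 had the probe sets with the highest mean signal in their subunits, and Mrpl22 and Mrps36 those with the lowest, although signals of different probe sets do not rank transcript amounts. Mrpl34 rose by 0.47 ± 0.06 with Si1 and 0.23 ± 0.06 with Si6, and the Si6 call was lost without negative control array c (0.056) and with the hypoxia control as reference (0.079). Mrpl22 rose by 0.36 ± 0.06 with Si1, and its Si6 difference was 0.13 ± 0.06 (adjusted p = 0.089), which passed with another quantile normalization (0.032), with the hypoxia control as reference (0.0024) and without Si6 array c (0.038).

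Cytosolic ribosomal proteins, the counterparts that build the ribosomes of the cytosol, gave other counts. Of 64 measured, 25 (39.1%) rose in hypoxia, where 9.87% of all genes rose, and the others did not pass (median 0.16). The mitochondrial members had 6 rises and 13 falls (median -0.06). With Si1, 19 (29.7%) rose, where 20.2% of all genes rose, and the others did not pass (median 0.14). With Si6, 6 (9.4%) rose and 2 (3.1%) fell (median 0.05), where 17.0% and 11.9% of all genes did. Between the siRNAs, 12 (18.8%) were higher with Si1, where 14.5% of all genes were. The difference between the 2 lists was not tested.

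Other genes that the mitochondrial ribosome depends on were counted on lists compiled with earlier results of these data known. Of 26 measured genes for ribosome assembly and ribosomal RNA modification, 13 (50%) fell and 1 rose in hypoxia, where 11.2% and 9.87% of all genes did. With Si1 13 (50%) rose and with Si6 16 (61.5%), where 20.2% and 17.0% of all genes rose. The remaining genes did not pass with that siRNA. Mpv17l2, an assembly factor of the large subunit, fell in hypoxia (-0.45 ± 0.05) and rose by 0.80 ± 0.05 with Si1 and 0.68 ± 0.05 with Si6. Fastkd2, an RNA-binding assembly protein, rose by 0.63 ± 0.07 and 0.51 ± 0.07. Tfb1m, which methylates the small subunit RNA, rose with Si6 (0.89 ± 0.06, adjusted p = 2.1e-08) and read 0.02 ± 0.06 with Si1, and the difference between the siRNAs was -0.88 ± 0.06.

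Of 17 translation factors, 8 (47.1%) rose and 3 (17.6%) fell with Si1, where 20.2% and 14.8% of all genes did. With Si6, 11 (64.7%) rose and 1 (5.9%) fell, where 17.0% and 11.9% of all genes did. In hypoxia 1 (5.9%) rose and 5 (29.4%) fell, where 9.87% and 11.2% of all genes did. Qrsl1, a subunit of the enzyme that makes mitochondrial glutaminyl-tRNA, rose by 0.73 ± 0.09 and 0.70 ± 0.09. Gatc, of the same enzyme, rose by 0.23 ± 0.06 with Si1 and 0.75 ± 0.06 with Si6. Tufm, the mitochondrial elongation factor Tu, rose by 0.69 ± 0.06 with Si1 and read 0.01 ± 0.06 with Si6. The siRNA difference passed for Gatc (-0.52 ± 0.06) and Tufm (0.69 ± 0.06). Of 3 mitochondrial ribosomal proteins with other names, Dap3 (0.36 ± 0.06, adjusted p = 0.00021) and Gadd45gip1 (0.20 ± 0.07, adjusted p = 0.047) rose in hypoxia and none fell. Dap3 (0.16 ± 0.06) and Ptcd3 (0.38 ± 0.06) rose with Si1, and with Si6 they read 0.08 ± 0.06 and 0.04 ± 0.06 and did not pass. Gadd45gip1 read -0.14 with Si1 and -0.10 with Si6 and passed with neither.

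Of 19 genes for mitochondrial DNA maintenance and transcription, 8 (42.1%) rose and 2 (10.5%) fell with Si1, where 20.2% and 14.8% of all genes did. With Si6, 5 (26.3%) rose and 1 (5.3%) fell, where 17.0% and 11.9% of all genes did. Lrpprc, which stabilises mitochondrial messenger RNAs, rose by 0.83 ± 0.09 and 0.60 ± 0.09, Elac2, a tRNA-trimming nuclease, by 0.70 ± 0.06 and 0.36 ± 0.06, and Supv3l1, an RNA helicase, by 0.59 ± 0.05 and 0.30 ± 0.05. Of 10 regulators of mitochondrial biogenesis, 4 rose and 1 fell with Si1, where 20.2% of all genes rose and 14.8% fell. With Si6, 2 rose and 2 fell, where 17.0% and 11.9% of all genes did, so the share of rises was near that of all genes. The PGC-1 family coactivators Ppargc1b (1.10 ± 0.06 and 0.53 ± 0.06) and Pprc1 (1.09 ± 0.06 and 0.56 ± 0.06) rose with Si1 and Si6. Mxi1, a MYC antagonist, rose in hypoxia (1.01 ± 0.06) and fell with Si1 (-1.47 ± 0.06) and Si6 (-1.03 ± 0.06). None of 13 mitochondrially encoded messenger RNAs was on a probe set with 1 symbol, so the genes this ribosome translates were not analysed here.

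Proliferation and cell identity genes moved across the same groups. Of 24 DNA replication genes, 23 fell in hypoxia, 23 rose with Si1 and 24 with Si6, where 11.2%, 20.2% and 17.0% of all genes did. From the hypoxia control to the negative control 18 rose, where 7.80% of all genes rose. Of 12 melanocyte markers, 8 fell with Si1, where 14.8% of all genes fell. With Si6, 6 rose and 1 fell, where 17.0% and 11.9% of all genes did. All 12 were lower with Si1 than with Si6, where 13.4% of all genes were. The log2 of their summed level was 15.66 to 15.71 in normoxia, 15.36 to 15.41 in the hypoxia control, 14.90 to 14.98 in the negative control, 14.68 to 14.77 with Si1 and 15.18 to 15.24 with Si6. Of 7 immune cell markers, 2 (28.6%) rose with Si1, Cd68 (1.33 ± 0.08) and Itgam (0.23 ± 0.07), where 20.2% of all genes rose. The other 5 did not pass. For 2 of the 7 the change was negative, the larger in Lyz2 (6.88 in the negative control and 6.65 with Si1). Cd68 had the highest level of the 7 markers. Their summed levels were 9.41 to 9.47 in the negative control, 10.14 to 10.29 with Si1 and 9.46 to 9.61 with Si6. Of 8 fibroblast markers 2 (25%) fell with Si1, where 14.8% of all genes fell. With Si6, 2 fell and 1 rose, where 11.9% and 17.0% of all genes did. The 8 keratinocyte markers did not pass with either siRNA. The summed fibroblast level was 9.87 to 10.07 in the negative control and 9.56 to 9.67 with Si1, and the keratinocyte level 9.01 to 9.06 and 9.04 to 9.10. The part of these genes, or of cell growth and cell composition, in the rise of the mitochondrial ribosomal protein genes was not tested. In a bulk culture, fewer cells of a type and less RNA per cell cannot be told apart.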

How the data were processed

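Total RNA of 15 cultures was labelled with biotin and hybridised to 1-colour Affymetrix arrays, per the labels' protocols. The values that the authors deposited are log2 intensities of 41345 probe sets. Per the submitters' processing notes, RMA and Partek were used, with versions, settings, build and filters not given in the sources used here. RMA normalizes between arrays, which hides any shift shared by all genes. Of the probe sets, 23521 had 1 gene symbol in the platform annotation, 1814 had several and 16010 had none, and those with 1 gave 22180 genes. Symbols were checked through Entrez identifiers in RefSeq GRCm38.p6 (23328 found, 0 changed).

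The deposited log2 intensities of all 15 arrays were fitted with limma 3.58.1 (R 4.3.3, 1 mean per group, eBayes), and 8 contrasts were tested two-sided at 0.05 after Benjamini-Hochberg adjustment across genes. The procedure was tested on simulated data. The number of arrays limits the precision, and the median standard error of a member's fold change was 0.07. The members and gene lists were chosen with earlier results of these data known.

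Named members were the 5 largest rises and falls of a comparison, taken from called members with no overlap between the groups' arrays, every member called against the majority, the highest and lowest mean signal in each subunit, members whose probe sets disagreed by over 0.5, and the Mrps18 paralogues. From each other list up to 3 genes with the largest siRNA change were named. Members outside this rule were named after their values were seen. Replicate letters were checked for pairing, and the letters were not used in the fit. Alternatives were other normalizations, filters, probe set summaries, fits and references, and leaving out each array in turn. Promoter windows were read from the RefSeq table of GRCm38.p6. All arrays were used, and scanner files were not analysed here.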

Additional observations from a re-analysis of the deposited data

Results flagged for a closer look

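In 10 members the response to the siRNAs differed: 1 siRNA passed against the negative control and the other did not, and the direct comparison of Si1 with Si6 passed (limma, adjusted over all genes). The share of all genes that meet this rule was not counted, so whether 10 of 71 is unusual is not known. In the direct comparison alone, 14.5% of all genes were higher with Si1 and 13.4% lower. The log2 differences, Si1 minus Si6, were 0.43 for Mrpl50, 0.37 for Mrps17, 0.34 for Mrpl13, 0.27 for Mrpl28, 0.24 for Mrps11, 0.23 for Mrps26, 0.22 for Mrpl22, 0.18 for Mrps18a, -0.28 for Mrpl54 and -0.37 for Mrpl24. The Mrps17 difference was not carried by that gene's second probe set (0.01 ± 0.08), and it no longer passed with the mean of both (adjusted p = 0.051). The Mrps18a and Mrpl54 differences lost their calls when single arrays were left out, as given with those genes. Among these 10, Mrpl13 is the member for which Si6 and not Si1 passed against the negative control. On its Si1 arrays Mrpl13 read 9.37, 9.05 and 9.41, a wider spread than on the Si6 arrays (8.93, 8.93 and 8.95).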

How the results depend on the processing

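Of 144 named calls, 99 were kept under every alternative that could be run for them, and 0 results reversed. Counts over all genes stayed within 1.5 times of the main count throughout. Among counts of members, those of rises with Si1 and with Si6 stayed within 1.5 times under every alternative, and the counts that moved further were mostly below 5. For the negative control against the hypoxia control, 2 rises became 1 with another quantile normalization, with median centring, with a gene's probe sets averaged, with the compared groups alone and with the replicate block, and 4 without the lowest 50% of genes, while 1 fall became 2 with the mean of probe sets and without the lowest 50%. With Si1 against the negative control, 2 falls became 1 with median centring or the compared groups alone and 4 without the lowest 50% of genes. With Si6, 1 fall became 2 with another quantile normalization and without the lowest 50%. Between the siRNAs, 3 falls became 1 with the compared groups alone. For Si1 against normoxia, 0 falls became 1 with another quantile normalization, without the lowest 25% or 50% of genes, and with trend and robust eBayes. The causes were not tested.

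Leaving out each array in turn gave 7 to 11 falls in hypoxia, 0 to 1 rises and 0 to 1 falls between the controls, 1 to 3 falls with Si1 against the negative control, 16 to 27 rises and 1 to 5 falls between the siRNAs, 9 to 15 falls in the negative control against normoxia, and 0 to 1 falls with Si1 against normoxia. Replicate letters did not pair the arrays: same-letter arrays of different groups had deviations correlated at -0.22 to 0.21 (median -0.00), 3 of 30 pairs were over 0.1, and 4 of 15 arrays correlated best with their own letter. With the letter as a block, 54 members rose with Si1 and 41 with Si6, 23 were higher with Si1 than with Si6, and 11 fell in hypoxia. Another background correction and a block for slide or scan date were not run, since they need scanner files. Low signal limits the dimmest members, and the table holds no detection calls.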
